A study of Mus musculus with 6 samples.

Results

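The YAP and TEAD genes described here were 9 rows of a gene-level count table: the coactivators Yap1 and Wwtr1, the DNA-binding factor Tead1, and the target genes Ccn1, Ccn2, Ankrd1, Amotl2, Lats2 and Ajuba. They were taken by symbol from 25239 genes listed, without a cut on their values but with earlier results of these data known. All 9 were among the 15256 genes that passed the filter on low counts. The RNA came from thyroid follicle organoids grown from engineered mouse embryonic stem cells of the G4 RosaLuc background and collected at day 31. In these cells doxycycline turns on the thyroid factors Nkx2-1 and Pax8 (TRE-Nkx2-1-Pax8), and the bovine thyroglobulin promoter (bTg), active in thyrocytes, drives NES-BrafV637E-ERT2, an oncogenic Braf with the V637E substitution fused to ERT2 so that 4-hydroxytamoxifen (4OHT) activates the protein. Every group carried both transgenes and received 5 days of doxycycline at 1 µg/ml and 2 weeks of 8-Br-cAMP, a cAMP analog that promotes thyroid maturation.

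The samples formed 3 groups, each with 2 libraries of pooled wells that were enriched for follicles. The cAMP group stayed in 8-Br-cAMP without 4OHT, and the 4OHT group received 8-Br-cAMP with 1 µM 4OHT for 5 days. The PD+LY group received 8-Br-cAMP, 1 µM 4OHT, 250 nM of the MEK inhibitor PD0325901 and 5 µM of the PI3K inhibitor LY204002 for 3 days and, per the methods, these followed 4 days in 4OHT without inhibitors. Its time in 4OHT was thus 7 days against 5, and the effects of the inhibitors and of the longer exposure cannot be told apart. All libraries came from 1 engineered line, and no source states that replicates were separate differentiations, so p-values measure only the spread between these samples, which may be technical.

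YAP (Yap1) and TAZ (Wwtr1) are transcriptional coactivators at the end of the Hippo pathway. The kinases MST1/2 and LATS1/2 phosphorylate them and keep them in the cytoplasm, while cell spreading, actin tension and loss of epithelial polarity favour their entry into the nucleus, where they bind TEAD factors on DNA. Ccn1, Ccn2 and Ankrd1 are widely used readouts of this activity, and Amotl2, Lats2 and Ajuba are targets whose products act back on the pathway. YAP and TEAD regulation occurs largely on protein location and phosphorylation, which RNA counts do not measure.

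The libraries held 14898409 to 20637959 counts, so that 1 count was worth 0.0486 to 0.0667 CPM (read counts scaled to library size). Braf transcript fell from 90.4 CPM in cAMP to 61.6 in 4OHT and 53.7 in PD+LY. These counts may pool endogenous and fusion transcripts, and 4OHT acts on the protein, so they do not check the labels. For the calls in this paragraph, made by edgeR at an adjusted p under 0.05, the shares of all genes were as follows. In PD+LY against 4OHT 10.7% were higher and 12.1% lower, in PD+LY against cAMP 12.1% and 13.7%, and in 4OHT against cAMP 4.04% and 4.35%. Under PD+LY, 7 of 9 ERK feedback genes were lower than in 4OHT, among them Dusp6, a phosphatase of ERK, with a log2 fold change of -2.45, and Etv4, an ERK-induced ETS factor, with -6.18. In 4OHT against cAMP the same list had 1 of 9 higher (Etv4, 0.80) and 3 lower (Dusp6 -0.72, Etv5 -0.54 and Spred2 -0.39) by edgeR, 1 higher and 4 lower by DESeq2, and a median log2 fold change of -0.39. All 11 thyroid markers had at least 3 counts in every library, with summed levels of 1113 to 1662 CPM in cAMP, 576 to 768 in 4OHT and 1002 to 2006 in PD+LY. Tg made up most of that sum, with means of 1294, 604 and 1388 CPM in that order. By edgeR, 3 of 11 were lower and 0 higher in 4OHT than in cAMP, and 7 were higher and 0 lower in PD+LY than in 4OHT. Not every marker followed the sum, as Pax8 had means of 15.2, 19.7 and 15.6 CPM. Mesenchymal markers summed to 1218 to 1327, 2268 to 2388 and 4125 to 4868 CPM in the same order, and 5 of 11 were higher and 2 lower in PD+LY than in cAMP. Smooth muscle markers summed to 199 to 271, 296 to 314 and 510 to 683 CPM, with 6 of 6 higher in PD+LY than in either other group, whereas 8 of 9 epithelial markers were lower there, from 1140 to 1236 CPM in cAMP and 895 to 1011 in 4OHT down to 803 to 837 in PD+LY. Pluripotency markers were present as well, 8 of 8 in every library. They summed to 3402 to 3582 CPM in cAMP, 3927 to 4115 in 4OHT and 4141 to 4387 in PD+LY. In PD+LY, 5 of 8 were higher and 1 was lower than in cAMP. Endothelial markers summed to 160 to 181 CPM, of which Pecam1 made up 128 to 171, while 4 of 7 tested were lower and 1 higher in 4OHT than in cAMP (median log2 fold change -1.47), among them Kdr with means of 10.3, 2.06 and 3.30 CPM in cAMP, 4OHT and PD+LY. Skeletal muscle markers summed to 38.4 to 114 CPM, of which Mylpf made up 35.9 to 109.5, with Myod1, Myog and Ckm at 0 to 8 counts, and macrophage markers to 31.7 to 68.4, with Ptprc and Adgre1 at 0 counts in all 6 libraries.

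TEAD factors bind the core motif GGAATG, also known as MCAT, and its presence just upstream of the start is what the following stretches show. RefSeq promoter windows on GRCm38.p6, with 250 bases before and 50 after the start, were found for 7 of the 9 genes, all except Ccn2 and Tead1. GGAATG on either strand occurred in at least 1 window of 7 of these 7 genes, and in 8 of their 9 windows, against 14.7% of 32851 mouse promoters of the same length. That share counts windows, so it is to be set against the windows and not the genes. The Wwtr1 windows overlap and hold the same site, which is counted in each of them. The AP-1 motif TGANTCA was in 0 of the 9 windows (7.81% of all promoters), and the full cAMP response element TGACGTCA was in 0 of 9 (1.79%). Both of these read the same on either strand. At such shares, a count of 0 among so few windows cannot be set apart from the background. Shorter forms of the cAMP response element were not searched, and the Ccn1 stretch below holds acgtca, a part of it. These matches are letters in a window and show no binding. In Ccn1 the match began 103 bases before the start and is given with the whole 250 bases upstream, since Ccn1 carried the largest changes of the 9 genes. The other stretches show the flanks of each match, in 30 bases each for Ankrd1 and Amotl2, whose windows overlap annotated 5′ UTRs in GENCODE M21. Capitals mark GGAATG or its reverse complement, and each stretch reads 5′ to 3′ along the strand of the gene.
Ccn1, chr3:145649986-145650235 (minus strand): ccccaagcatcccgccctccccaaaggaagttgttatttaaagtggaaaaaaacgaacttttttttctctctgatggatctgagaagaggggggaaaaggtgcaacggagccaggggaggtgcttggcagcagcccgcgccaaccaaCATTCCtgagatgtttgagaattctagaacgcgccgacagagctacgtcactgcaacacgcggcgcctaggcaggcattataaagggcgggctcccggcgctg
Ankrd1 distal match, chr19:36120037-36120066 (minus strand): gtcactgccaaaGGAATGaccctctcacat
Ankrd1 proximal match, chr19:36119950-36119979 (minus strand): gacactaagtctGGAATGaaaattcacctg
Amotl2, chr9:102717727-102717756 (plus strand): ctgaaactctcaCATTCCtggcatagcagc
Ajuba, chr14:54577795-54577872 (minus strand): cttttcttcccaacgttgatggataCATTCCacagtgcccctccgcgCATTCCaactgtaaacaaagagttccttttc
Yap1, chr9:8004707-8004762 (minus strand): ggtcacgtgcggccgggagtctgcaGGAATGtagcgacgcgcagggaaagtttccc
Wwtr1, chr3:57576016-57576071 (minus strand): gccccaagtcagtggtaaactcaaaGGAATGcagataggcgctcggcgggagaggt
The Ankrd1 matches began 210 and 123 bases before the start, those of Ajuba 186 and 164, and the single matches of Yap1, Wwtr1 and Amotl2 141, 136 and 65 bases before it. The match of Lats2 lay after its start and is not printed.

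The 9 genes did not move together between the groups. Ccn1 rose under 4OHT and fell again under PD+LY, Ccn2 was lower under PD+LY than in cAMP, and Yap1 was modestly higher under PD+LY than in both other groups. Calls used edgeR's quasi-likelihood test with p adjusted by Benjamini-Hochberg over all 15256 genes, and log2 fold changes are given with their standard error (SE). In 4OHT against cAMP, 1 member was higher (Ccn1), where 4.04% of all genes were higher, and 0 were lower, where 4.35% were. Without adjustment 1 was higher and 4 were lower at p under 0.05, and DESeq2 called 1 higher and 1 lower (Ajuba). No member passed a 2-fold change as well, against 1.17% of genes higher and 1.51% lower, with 0 past both thresholds by DESeq2 also. In PD+LY against 4OHT, 1 member was higher (Yap1) against 10.7% of all genes, and 1 was lower (Ccn1) against 12.1%, while DESeq2 called 1 higher and 2 lower (Ccn1 and Ccn2). Past 2-fold as well, Ccn1 was the single member lower, against 4.90% of genes, and 0 were higher, against 2.35%. In PD+LY against cAMP, 1 member was higher (Yap1) against 12.1% of genes and 1 was lower (Ccn2) against 13.7%, while DESeq2 called 1 higher and 2 lower (Ccn2 and Tead1). Past 2-fold as well there were 0 in either direction by edgeR or DESeq2, against 3.00% higher and 6.24% lower. Counts of 0 or 1 among 9 genes are too small to set them apart from these background shares. The same holds for the counts of 0 in the lists of other TEAD and CCN genes below. The median log2 fold changes of the members were -0.04, -0.14 and -0.21 in the 3 comparisons, in the order just given and used from here on, and those of all genes tested were -0.002, 0.008 and 0.005. Each group serves in 2 of the comparisons, which are therefore not independent.

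**Figure D1:**
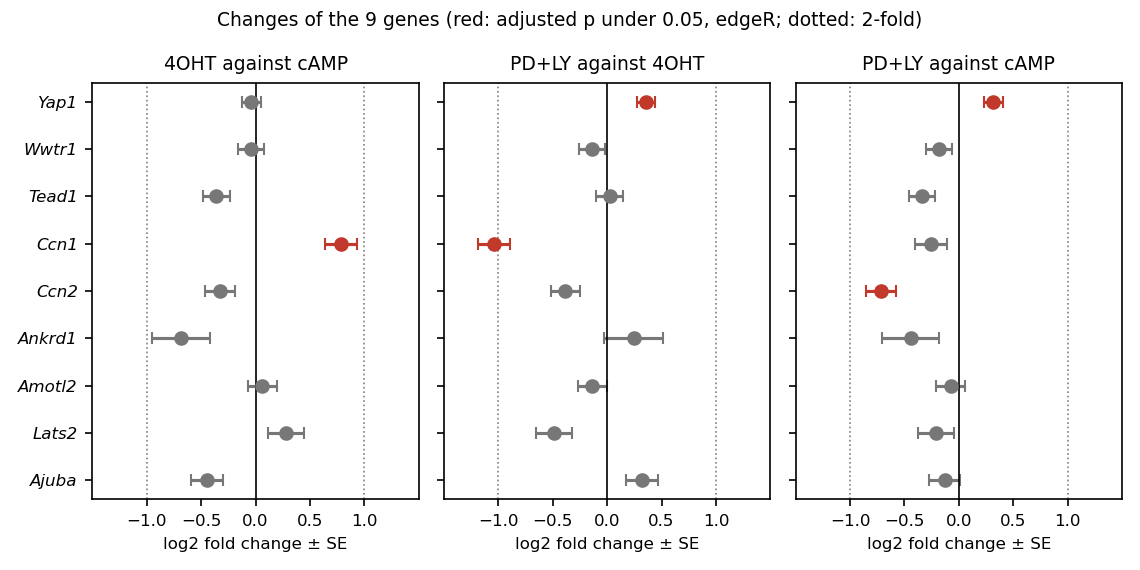
Log2 fold changes of the 9 genes (horizontal axis) in the 3 comparisons, with bars of 1 SE from edgeR; red points had an adjusted p under 0.05 and dotted lines mark 2-fold. Ccn1 moved up by 0.78 with 4OHT and to -1.04 in PD+LY against 4OHT, and the other points lie inside the 2-fold lines.

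The number of calls in 4OHT against cAMP differed between analyses. The PD+LY replicates differed from each other more than the others did, where chi-square over degrees of freedom was 17.66 in PD+LY, 8.26 in cAMP and 4.53 in 4OHT. When the model held only the cAMP and 4OHT libraries (14858 genes tested), 5 members passed in place of 1: besides Ccn1, lower levels of Ccn2 (adjusted p = 0.0244), Ankrd1 (0.0469), Ajuba (0.00899) and Tead1 (0.0187). The fold changes themselves barely moved, as for Tead1, -0.36 in the 3-group model and -0.36 in the 2-group one. The same 5 genes passed when either PD+LY library was left out of the 3-group model. They also passed with all 6 libraries and no filter on low counts, with adjusted p = 0.024 for Ccn2, 0.0321 for Ankrd1, 0.0012 for Ajuba and 0.00604 for Tead1. The cause of the difference in calls was not tested.

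**Figure D2:**
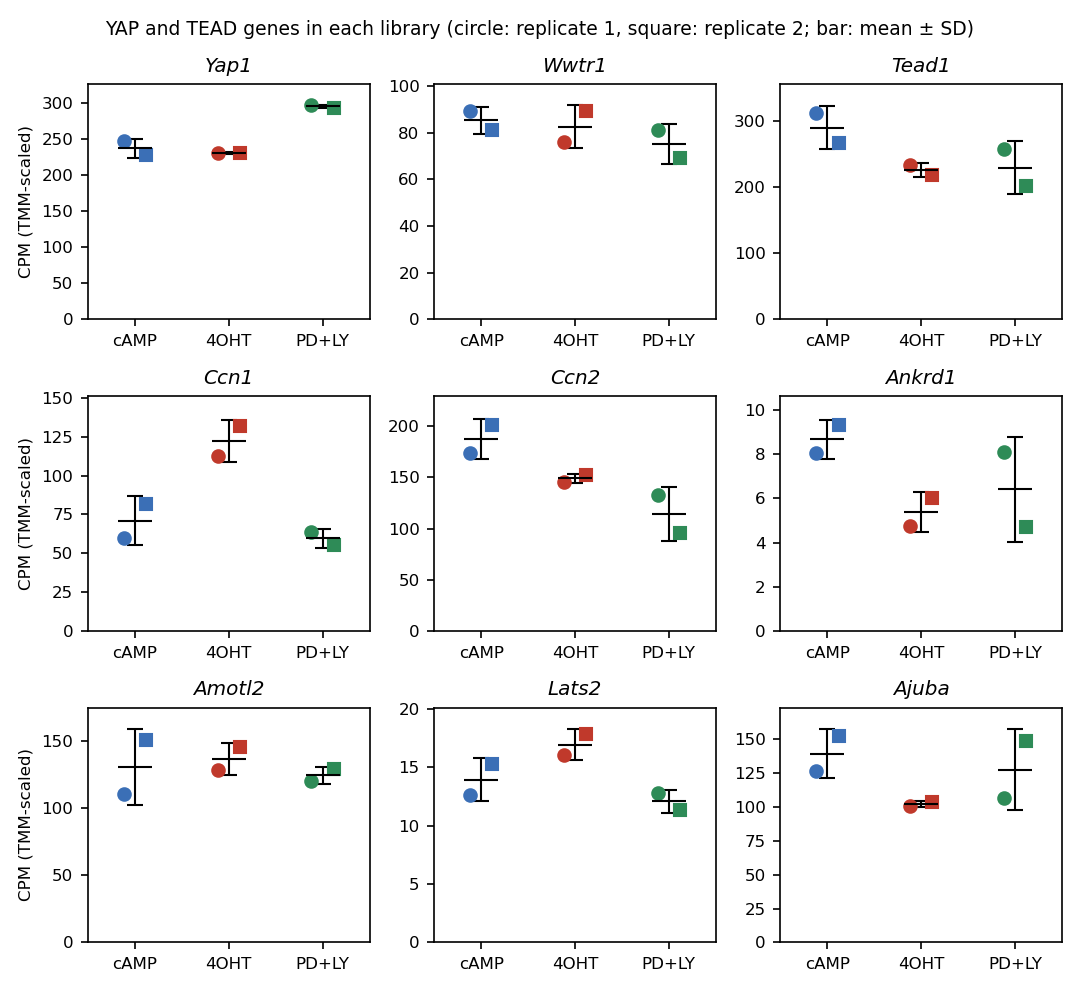
CPM of each gene (vertical axis, from 0) in the 6 libraries, with circles for replicate 1, squares for replicate 2 and bars for mean ± SD (n = 2 per group). Ccn1 is highest in the 4OHT libraries, at 112 and 132 CPM, and Yap1 is highest in the PD+LY libraries, at 296 and 293 CPM.

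Yap1 encodes YAP itself (GRCm38 chr9:7931999-8004596, minus strand). Its level was 246 and 227 CPM in the cAMP libraries, 231 and 229.5 in the 4OHT libraries, and 296 and 293 in the PD+LY libraries. The PD+LY libraries lay above all others, and cAMP and 4OHT overlapped. Yap1 was 1.28-fold higher in PD+LY than in 4OHT (log2 fold change 0.36 ± 0.0863 (SE), adjusted p = 0.0119) and 1.24-fold higher than in cAMP (0.32 ± 0.0862, adjusted p = 0.0186). Between 4OHT and cAMP it differed by -0.04 on the log2 scale (95% interval -0.23 to 0.15). When each library was left out in turn, the call held in 4 of 6 cases in each comparison, with adjusted p from 0.0103 to 0.0195 and from 0.0184 to 0.0483. It was lost without a library of the group that PD+LY was set against: relative to 4OHT the adjusted p was 0.0967 without 4OHT replicate 1 and 0.122 without 4OHT replicate 2, and relative to cAMP it was 0.0538 without cAMP replicate 1 and 0.161 without cAMP replicate 2. Mesenchymal, smooth muscle and pluripotency marker sums were also highest in PD+LY (4125 to 4868, 510 to 683 and 4141 to 4387 CPM). Collagen genes made up most of the first sum, and not every mesenchymal or pluripotency marker rose. The part of these cell types in the Yap1 difference was not tested. In bulk RNA, fewer cells of a type and less RNA per cell cannot be told apart. Reads were counted without regard to strand, and an exon of Gm20416 overlaps Yap1 on the opposite strand, so its reads cannot be told apart here.

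Wwtr1 encodes TAZ, the paralog of YAP (chr3:57455649-57575910, minus strand). It measured 89.3 and 81.3 CPM in cAMP, 76.1 and 89.2 in 4OHT, and 81.3 and 69.3 in PD+LY, so all groups overlapped. The log2 fold changes were -0.04, -0.14 and -0.18 in the 3 comparisons (adjusted p = 0.863, 0.442 and 0.297 by edgeR). The 95% interval of the last, -0.44 to 0.08, leaves room for a moderate decrease. The ratio of Yap1 to Wwtr1 counts within a library, which does not depend on scaling between libraries, was 2.76 and 2.797 in cAMP, 3.03 and 2.57 in 4OHT, and 3.65 and 4.23 in PD+LY. Both PD+LY libraries had the higher ratios. With 2 libraries against 2, the exact permutation test (two-sided) cannot go below p = 0.3333, the value reached in both comparisons with PD+LY (0.5 after adjustment over the 9 ratio comparisons made).

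Tead1 encodes a TEAD factor that brings YAP and TAZ to DNA (chr7:112679318-112906807, plus strand). Its level was 313 and 267 CPM in cAMP, 234 and 218 in 4OHT, and 257 and 201 in PD+LY. Both cAMP libraries were above the other 4, though the gap to PD+LY replicate 1 was small. The log2 fold change was -0.36 ± 0.122 (SE, adjusted p = 0.0938) for 4OHT and -0.34 ± 0.122 (adjusted p = 0.0607) for PD+LY, both relative to cAMP, and 0.02 between PD+LY and 4OHT (adjusted p = 0.921). Tead1 was called lower in PD+LY than in cAMP by DESeq2 (adjusted p = 0.0494), with no filter on low counts (0.0068) and without PD+LY replicate 1 (-0.53, adjusted p = 0.0032).

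The other TEAD factors and the Vgll cofactors, which compete with YAP for TEAD, gave no call. Of 7 listed, 5 were tested, and 0 of 5 were higher or lower in any comparison by edgeR, by DESeq2 or at an unadjusted p under 0.05. Tead2 measured 226 and 269 CPM in cAMP, 272 and 252 in 4OHT, and 254 and 308 in PD+LY, while Tead4 ranged from 23.9 to 29.7 CPM and Tead3 from 12.2 to 15.8. Per kilobase of exon, Tead2 stood above Tead1 in each group, with mean levels of 51.6, 54.8 and 58.7 CPM per kb in cAMP, 4OHT and PD+LY against 21.4, 16.6 and 16.9 for Tead1. Cd37 overlaps exons of Tead2 on the opposite strand, and counting ignored strand. The ratio of Tead1 to Tead2 counts was 1.39 and 0.994 in cAMP, 0.859 and 0.864 in 4OHT, and 1.02 and 0.652 in PD+LY. The cAMP and 4OHT libraries did not overlap in this ratio, but the PD+LY libraries lay on either side of the 4OHT libraries (exact permutation p = 0.3333 for 4OHT against cAMP, the smallest possible, and 0.6667 for PD+LY against cAMP).

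**Figure D3:**
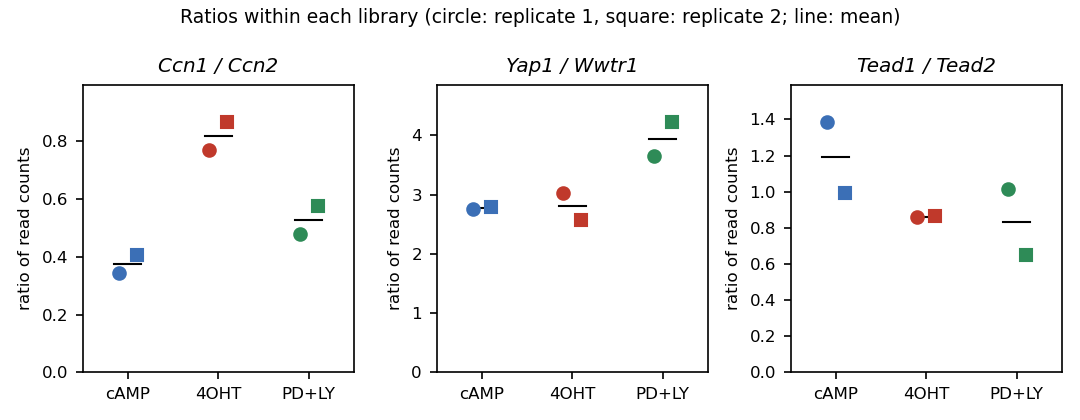
Ratios of read counts within each library (vertical axes, from 0) for 3 pairs of genes, with circles for replicate 1, squares for replicate 2 and lines for group means. The Ccn1 to Ccn2 ratio forms 3 groups that do not overlap, lowest in cAMP and highest in 4OHT, and the Yap1 to Wwtr1 ratio is highest in PD+LY.

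Ccn1 (formerly Cyr61) and Ccn2 (formerly Ctgf) encode secreted matricellular proteins that bind integrins and growth factors. Ccn1 (chr3:145646976-145649981, minus strand) measured 59.7 and 81.9 CPM in cAMP, 112 and 132 in 4OHT, and 63.7 and 55.3 in PD+LY. The 4OHT libraries lay above the other 4, and PD+LY overlapped with cAMP. Ccn1 was 1.72-fold higher in 4OHT than in cAMP (log2 fold change 0.78 ± 0.147 (SE), adjusted p = 0.00797) and lower in PD+LY than in 4OHT by more than 2-fold (-1.04 ± 0.148, adjusted p = 0.000563). Relative to cAMP, the PD+LY libraries differed by -0.25 on the log2 scale (95% interval -0.58 to 0.07, adjusted p = 0.233). The rise under 4OHT lost its call without cAMP replicate 1 (0.58, adjusted p = 0.0584) and without 4OHT replicate 2 (0.67, adjusted p = 0.104). The fall under PD+LY was called in each of 12 alternative analyses, from -1.15 to -0.92 with adjusted p from 4.79e-16 to 0.0134, and was within 2-fold without 4OHT replicate 2 (-0.92) or without PD+LY replicate 2 (-0.94). In PD+LY against cAMP, Ccn1 passed in 1 alternative, without cAMP replicate 1 (-0.46, adjusted p = 0.0491).

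Ccn2 took another course (chr10:24595442-24598683, plus strand). It measured 173 and 201 CPM in cAMP, 146 and 152 in 4OHT, and 133 and 95.9 in PD+LY. The 3 groups did not overlap and stepped down in that order. The step from cAMP to 4OHT, -0.33 ± 0.136 (SE) on the log2 scale, did not pass (adjusted p = 0.165), nor did that from 4OHT to PD+LY, -0.38 ± 0.137 (adjusted p = 0.0641). DESeq2 did call the latter (adjusted p = 0.0444), as did edgeR with no filter on low counts (0.00403). Over both, Ccn2 was lower in PD+LY than in cAMP (-0.71 ± 0.137, adjusted p = 0.00276), which held in each of 12 alternatives, from -0.96 to -0.50 with adjusted p from 1.82e-09 to 0.0244. The 2 PD+LY libraries differed 1.38-fold, and without replicate 1 Ccn2 was also called lower in PD+LY than in 4OHT (-0.64, adjusted p = 0.00159). Exons of Gm15270 overlap Ccn2 on the opposite strand, and counting ignored strand.

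The difference between the paralogs was plain in their ratio. Ccn1 counts divided by Ccn2 counts gave 0.344 and 0.408 in cAMP, 0.771 and 0.867 in 4OHT, and 0.481 and 0.577 in PD+LY. No group overlapped with another, and each of the 3 exact permutation tests gave p = 0.3333, the smallest possible with 2 libraries a group (0.5 adjusted over 9). The mean ratios were 0.376 ± 0.0449, 0.819 ± 0.0679 and 0.529 ± 0.0677 (SD, n = 2). The other CCN genes were scarce: Ccn3, Ccn4, Ccn5 and Ccn6 ranged from 0.2 to 4.58 CPM over all libraries. Of these 4, 0 were called in any comparison by edgeR or DESeq2, with 0, 1 and 1 lower and 0 higher in the 3 comparisons at an unadjusted p under 0.05.

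Ccn1 was the member past both thresholds, and the genes with the nearest pattern over the 6 libraries were Lmna, Ssh3 and S100a13. Likeness was the root mean square difference of centred log2 CPM, which was 0.0882, 0.0884 and 0.1183 for these among 12215 candidate genes, against 0.4707 for the spread of Ccn1 about its own mean. Lmna encodes the A-type lamins of the nuclear envelope, and measured 38.2 and 55.4 CPM in cAMP, 69.9 and 78.3 in 4OHT, and 42.5 and 39.7 in PD+LY. Ssh3 encodes a slingshot phosphatase, and S100a13 a small calcium-binding protein. Ssh3 measured 13.9 and 16.2, 22.6 and 27.3, and 13.4 and 12.5 CPM in the same order of groups, and S100a13 measured 33.3 and 36.2, 52.5 and 57.8, and 28.5 and 25.8. These genes were picked for their likeness to Ccn1, so their own course is a description. Among pairs of the 9 genes, the nearest were Wwtr1 and Tead1 (0.1642) and the farthest were Ccn1 and Ankrd1 (0.6745).

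Ankrd1 encodes an ankyrin repeat protein of the sarcomere and nucleus that is induced by YAP in many cell types (chr19:36111961-36120099, minus strand). It was scarce, at 8.05 and 9.31 CPM in cAMP, 4.74 and 6.03 in 4OHT, and 8.10 and 4.72 in PD+LY, which correspond to 128, 191, 71, 110, 159 and 97 counts. The 4OHT libraries lay below the cAMP libraries, and the PD+LY libraries spanned both groups with a 1.72-fold difference between them. Under 4OHT the log2 fold change was -0.69 ± 0.268 relative to cAMP (SE, adjusted p = 0.142), opposite in sign to Ccn1. Under PD+LY it was 0.24 ± 0.271 relative to 4OHT (adjusted p = 0.553) and -0.44 ± 0.26 relative to cAMP (adjusted p = 0.238). Without PD+LY replicate 1, the last became -0.88 with adjusted p = 0.0238. Ankrd1 is also a cardiac and skeletal muscle gene. Cardiomyocyte markers summed to 17.8 to 18.1 CPM in cAMP, 20.9 to 21.3 in 4OHT and 14.9 to 18.2 in PD+LY, but Ryr2 made up most of that sum (means of 9.48, 14.9 and 12.6 CPM, a gene picked out after its values were seen). Of the 6 tested, 0 were called in 4OHT against cAMP by edgeR or DESeq2, with 1 higher and 2 lower at an unadjusted p under 0.05, and 3 were lower in PD+LY than in cAMP. These 3 were Myh6, with means of 3.09, 1.57 and 1.44 CPM in cAMP, 4OHT and PD+LY, Actc1, with 2.19, 1.00 and 0.646, and Myl7, with 1.59, 1.56 and 0.518. Skeletal muscle markers, mostly Mylpf, summed to 87.0 to 98.0, 110 to 114 and 38.4 to 40.3 CPM. Their part in the Ankrd1 values was not tested.

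Amotl2, Lats2 and Ajuba are targets whose products feed back on YAP. Amotl2 encodes an angiomotin that tethers YAP at junctions (chr9:102716672-102733418, plus strand). It measured 111 and 151 CPM in cAMP, 129 and 145 in 4OHT, and 120.3 and 129 in PD+LY. The 2 cAMP libraries enclosed all the others, and the log2 fold changes of 0.06, -0.14 and -0.07 had adjusted p = 0.818, 0.492 and 0.727. Their 95% intervals were -0.23 to 0.35, -0.43 to 0.15 and -0.36 to 0.22, so a change of 2-fold lies outside each.

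Lats2 encodes a kinase that phosphorylates YAP and TAZ (chr14:57689662-57758388, minus strand). It measured 12.6 and 15.3 CPM in cAMP, 16.01 and 17.9 in 4OHT, and 12.8 and 11.4 in PD+LY. As with Ccn1, the 4OHT libraries were highest and PD+LY overlapped with cAMP, but the differences were smaller. The log2 fold changes were 0.28 ± 0.166 (SE, adjusted p = 0.337), -0.49 ± 0.166 (adjusted p = 0.0526) and -0.21 ± 0.167 (adjusted p = 0.386) in the 3 comparisons. The second was called without PD+LY replicate 1 (-0.58, adjusted p = 0.0478) and with no filter on low counts (adjusted p = 0.039). An exon of Gm49361 overlaps Lats2 on the same strand, so reads there are uncertain. Lats1, its paralog, had log2 fold changes of -0.14, 0.02 and -0.12 with adjusted p = 0.609, 0.935 and 0.589.

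Ajuba encodes a LIM-domain protein that binds LATS kinases at junctions under tension (chr14:54567472-54577558, minus strand). It measured 126 and 152 CPM in cAMP, 101 and 104 in 4OHT, and 107 and 149 in PD+LY. The 4OHT libraries were lowest, and PD+LY overlapped with cAMP. The log2 fold changes were -0.45 ± 0.144 (SE, adjusted p = 0.0789), 0.32 ± 0.144 (adjusted p = 0.129) and -0.13 ± 0.143 (adjusted p = 0.55) in the 3 comparisons. DESeq2 placed the first past the threshold (adjusted p = 0.0426). Ajuba was called higher in PD+LY than in 4OHT without PD+LY replicate 1 (0.54, adjusted p = 0.005) and with no filter (adjusted p = 0.0172), and without PD+LY replicate 2 it was called lower in PD+LY than in cAMP (-0.38, adjusted p = 0.03).

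**Figure D4:**
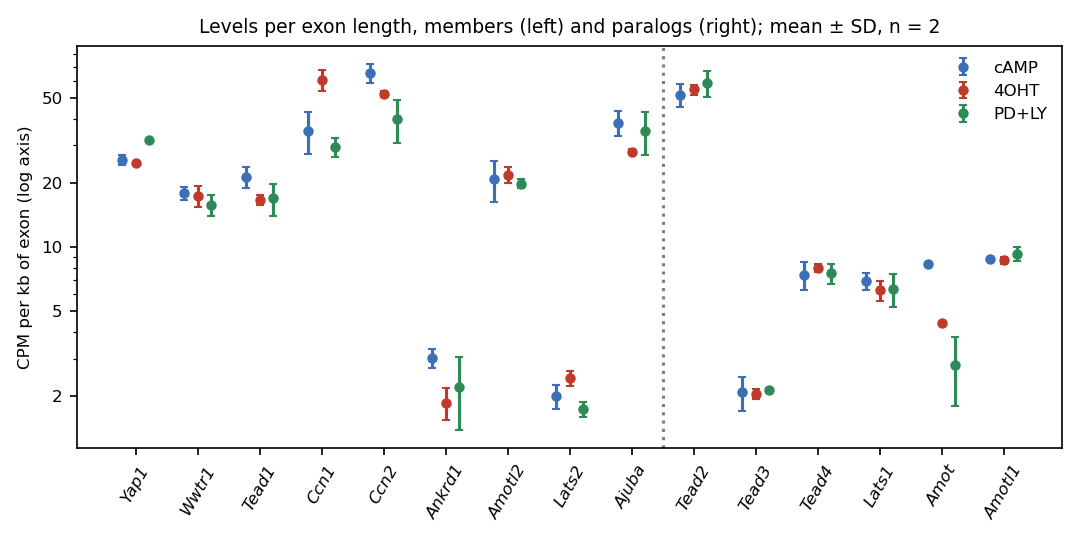
Mean level per kb of exon (vertical log axis, CPM per kb) of the 9 genes and of paralogs to the right of the dotted line, with SD bars (n = 2 per group). By this measure, Ccn2 heads the members in cAMP at 65.4 and Ccn1 in 4OHT at 60.5, an order that depends on the exon lengths used. Ankrd1 and Lats2 lie between 1.73 and 3.01, and Amot falls from 8.29 to 2.797.

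Divided by exon length, the levels can be set against each other. In cAMP, Ccn2 came first at 65.4 CPM per kb, followed by Ajuba at 38.2, Ccn1 at 35.1, Yap1 at 25.6, Tead1 at 21.4, Amotl2 at 20.8, Wwtr1 at 17.8, Ankrd1 at 3.01 and Lats2 at 2.00. Neighbours overlapped between Ajuba and Ccn1, Tead1 and Amotl2, and Amotl2 and Wwtr1. In 4OHT, Ccn1 at 60.5 CPM per kb stood above Ccn2 at 52.1, without overlap of their libraries, and Ankrd1 at 1.87 stood below Lats2 at 2.43. The order of Ccn1 and Ccn2 rests on their union exon lengths of 2.019 and 2.861 kb, which pool all annotated exons of a gene. Before division by length, Ccn2 was the higher in 4OHT, at 146 and 152 CPM against 112 and 132 for Ccn1. In PD+LY, Ccn2 at 39.9, Ajuba at 34.99 and Yap1 at 31.8 overlapped in turn, and Ccn1 followed at 29.5. The summed level of all 9 genes stayed between 1008 and 1186 CPM over the 6 libraries.

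Among 17 other YAP and TEAD target genes, calls went both ways. In 4OHT against cAMP, 2 were higher and 1 lower by edgeR, where 4.04% of all genes were higher and 4.35% lower. In PD+LY against 4OHT, 4 were higher and 1 lower, against 10.7% and 12.1% of all genes. In PD+LY against cAMP, 2 were higher and 3 lower, against 12.1% and 13.7%. The median log2 fold changes of the list were -0.03, -0.01 and 0.19. Myof, a membrane repair protein, measured 31.3 and 31.7 CPM in cAMP, 46.6 and 48.3 in 4OHT, and 55.2 and 46.3 in PD+LY, and it was higher in 4OHT (0.59, adjusted p = 0.014) and in PD+LY (0.69, adjusted p = 0.00181) than in cAMP. Tgfb2, a TGF-beta ligand, stayed between 21.1 and 22.2 CPM in cAMP and 4OHT and measured 45.2 and 31.4 in PD+LY (0.82 against either group, adjusted p = 0.00477 against 4OHT and 0.00385 against cAMP). Rbms3, an RNA-binding protein, was higher in PD+LY than in 4OHT (0.86, adjusted p = 0.0475). Lower in PD+LY than in cAMP were Igfbp3, which binds insulin-like growth factors (-0.65, adjusted p = 0.00167), Nuak2, a kinase related to AMPK (-0.58, adjusted p = 0.0112), and Fjx1, the mammalian four-jointed (-1.40, adjusted p = 0.009). Fjx1 went from 3.21 and 4.53 CPM in cAMP to 1.68 and 1.26 in PD+LY.

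**Figure D5:**
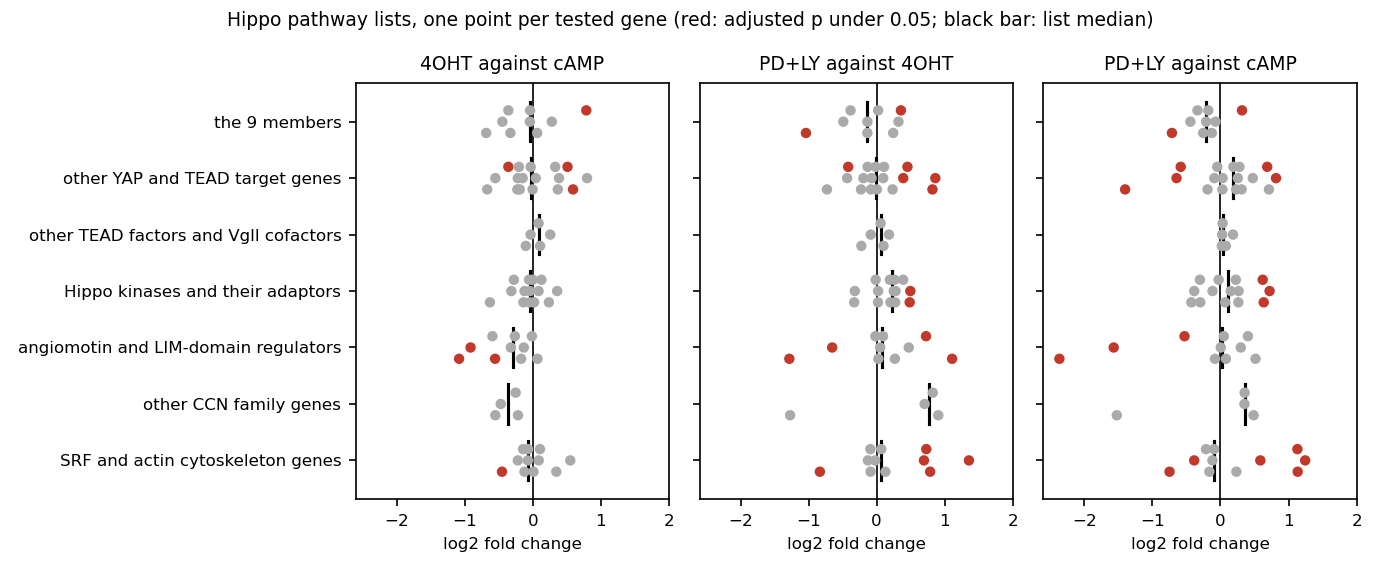
Log2 fold change (horizontal axis) of each tested gene of 7 lists in the 3 comparisons, red where the adjusted p was under 0.05 by edgeR, with a black bar at each list's median. Red points lie on both sides of 0 in most lists, the TEAD and CCN lists have none, and Crb3 reaches -2.37 among the angiomotin and LIM-domain regulators.

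Of the 14 Hippo kinases and adaptors, which restrain YAP, 0 were called in 4OHT against cAMP by edgeR or DESeq2, with 2 higher and 2 lower at an unadjusted p under 0.05. Of all genes, 4.04% were higher and 4.35% lower by edgeR. In PD+LY, 2 were higher than in 4OHT by edgeR and 3 by DESeq2, against 10.7% of all genes by edgeR. By either method 3 were higher than in cAMP, against 12.1% of all genes. By edgeR or DESeq2, 0 were lower, against 12.1% and 13.7% of all genes, with 2 lower at an unadjusted p under 0.05 in each comparison. Counts this small cannot be set apart from these shares. Stk3, which encodes MST2, measured 32.4 and 31.7 CPM in cAMP, 36.6 and 33.4 in 4OHT, and 48.5 and 49.99 in PD+LY (0.49 relative to 4OHT, adjusted p = 0.0104, and 0.62 relative to cAMP, adjusted p = 0.00238). Wwc2, a relative of the adaptor KIBRA, measured 99.2 and 99.7, 116 and 118, and 164 and 164 CPM (0.49, adjusted p = 0.00251, and 0.72, adjusted p = 0.000134). Frmd6, a FERM-domain adaptor, was higher in PD+LY than in cAMP (0.63, adjusted p = 0.00204).

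Among the Hippo pathway lists, the largest fold change was that of the polarity gene Crb3. Of 10 angiomotin, LIM-domain and polarity regulators, 3 were lower and 0 higher in 4OHT than in cAMP by edgeR, where 4.35% of all genes were lower and 4.04% higher. In PD+LY 2 were higher and 2 lower than in 4OHT, against 10.7% and 12.1% of all genes. In PD+LY 3 were lower and 0 higher than in cAMP, against 13.7% and 12.1%. DESeq2 gave the same counts for this list in the 3 comparisons. At an unadjusted p under 0.05, 0 and 1 were higher in the first and the last of these. Amot, the angiomotin paralog of Amotl2, went from 68.9 and 70.3 CPM in cAMP to 37.1 and 36.8 in 4OHT and 29.4 and 17.6 in PD+LY (-0.92, -0.65 and -1.57 in the 3 comparisons, adjusted p = 0.0109, 0.0269 and 0.000108). The third angiomotin, Amotl1, differed by -0.01, 0.09 and 0.08 (adjusted p = 0.952, 0.532 and 0.597). Crb3, an apical polarity protein, went from 18.7 and 26.9 CPM to 10.7 and 10.8 and then 4.13 and 4.72 (-1.08, -1.28 and -2.37, adjusted p = 0.00654, 0.00146 and 1.3e-05). Dennd1c overlaps exons of Crb3 on the opposite strand, and counting ignored strand. Patj, which joins the same apical complex, was lower in 4OHT (-0.55, adjusted p = 0.0248) and in PD+LY (-0.53, adjusted p = 0.0119) than in cAMP. The atypical cadherins Fat1 (0.73, adjusted p = 0.00678) and Fat4 (1.11, adjusted p = 0.0378) were higher in PD+LY than in 4OHT. Crb3 and Patj are epithelial genes. The epithelial marker sum fell in the same order of groups as Crb3, from 1140 to 1236 CPM in cAMP to 803 to 837 in PD+LY. Patj did not, with means of 33.4, 22.7 and 23.2 CPM in cAMP, 4OHT and PD+LY. By edgeR 8 of 9 markers were lower in PD+LY than in 4OHT, but not every marker followed the sum. Cdh1 had means of 386, 280 and 444 CPM in the same order of groups, and Krt7 had 29.4, 60.7 and 20.4. The part of cell composition in these values was not tested.

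Genes of SRF and the actin cytoskeleton share targets and upstream tension with YAP. In 4OHT against cAMP 1 of 11 was lower (Flna, which crosslinks actin, -0.45, adjusted p = 0.0142) and 0 were higher by edgeR or DESeq2, with 2 higher at an unadjusted p under 0.05. Of all genes, 4.35% were lower and 4.04% higher by edgeR. In PD+LY, 4 were higher and 1 lower than in 4OHT, against 10.7% and 12.1% of all genes. Relative to cAMP, 4 were higher and 2 lower in PD+LY, against 12.1% and 13.7%. Those higher in PD+LY than in 4OHT were Cnn1 (1.36, adjusted p = 0.000623), Acta2 (0.79, adjusted p = 0.00222), Myl9 (0.73, adjusted p = 0.0145) and Tagln (0.69, adjusted p = 0.0197), contractile genes of smooth muscle, of which Cnn1, Acta2 and Tagln also belong to the smooth muscle markers. Fhl2, a LIM-domain cofactor, was lower (-0.83, adjusted p = 0.00945). Smooth muscle markers summed to 510 to 683 CPM in PD+LY against 296 to 314 in 4OHT, and their part in these differences was not tested. Ccn1 and Ccn2 did not rise with the contractile genes under PD+LY. Most of the list did not either: 6 of 11 were not called in PD+LY against 4OHT, among them Srf itself (means of 69.3 CPM in 4OHT and 63.4 in PD+LY).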

How the data were processed

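The authors trimmed reads of a stranded mRNA kit with Trimmomatic, mapped them to mm10 with HISAT2 and summed them over genes in HTSeq's unstranded mode, and deposited raw counts per gene symbol for 6 libraries. Groups came from the labels. From the counts, low genes were removed by filterByExpr (count 10, total 15), scaled by TMM and tested in edgeR 4.0.16 (R 4.3.3) with a quasi-likelihood model of the 3 groups fitted to all 6 libraries, with Benjamini-Hochberg adjustment over 15256 genes, an adjusted p threshold of 0.05 and a fold threshold of 2. The procedure was tested on simulated data. CPM were TMM-scaled, and levels per kb used GENCODE M21 union exon length on GRCm38. Libraries held 14898409 to 20637959 counts, and replicates differed by more than counting error in each group. Nearest patterns used log2 CPM with a prior count of 2 among genes averaging at least 50 counts. Beside the 9 genes, the text names paralogs, checks of the treatment, the 3 genes nearest to a member past both thresholds and, per list, at most 6 genes with an adjusted p under 0.05. Alternatives were DESeq2 1.42.0, RLE size factors, other filters, only the 2 groups compared, a replicate block and leaving out each library. The members and lists were chosen with earlier results of these data known.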

Additional observations from a re-analysis of the deposited data

How the results depend on the processing

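With 2 libraries a group, the spread between replicates, which exceeded counting error in every group, set what could be called, and 1 library could decide a call. The number of members with an adjusted p under 0.05 in 4OHT against cAMP was 1, and became 2 with DESeq2, 5 without a filter, 5 with only the 2 groups compared and 3 with the replicate block, and 0 to 5 when 1 library was left out. In PD+LY against 4OHT it was 2, and became 3 with DESeq2, 5 without a filter, 5 with the replicate block (Ccn2, Lats2 and Ajuba added in both) and 1 to 5 with 1 library left out. In PD+LY against cAMP it was 2, became 3 with DESeq2, without a filter or with the replicate block (Tead1 added in each), and was 1 to 4 with 1 library left out. Past both thresholds the counts were 0, 1 and 0, and 0 to 1, 0 to 1 and 0 with 1 library left out. The lower counts in 4OHT against cAMP arose without cAMP replicate 1 or 4OHT replicate 2 and the higher ones without either PD+LY library. The causes were not tested. Signs turned when 1 library was left out for the log2 fold changes of Amotl2 (-0.14 to 0.31), Yap1 (-0.092 to 0.016) and Wwtr1 (-0.16 to 0.069) in 4OHT against cAMP, of Ankrd1 (-0.20 to 0.58) and Tead1 (-0.17 to 0.19) in PD+LY against 4OHT, and of Ccn1 (-0.46 to 0.005), Amotl2 (-0.28 to 0.18) and Ajuba (-0.38 to 0.091) in PD+LY against cAMP, none of which was called in the 3-group model. Over the 9 genes, 3 comparisons and 12 alternatives, 270 values kept direction and call, 36 gained a call, 6 lost one and 12 turned. The labels number replicates 1 and 2 in every group, but no source ties a number to a shared batch and there are 2 pairs a comparison, so the libraries share only a number. Deviations of same-numbered libraries correlated at 0.072 between cAMP and 4OHT, 0.207 between cAMP and PD+LY, and 0.059 between 4OHT and PD+LY across genes, which are not independent.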
